A study of Mus musculus with 26 samples.

Results

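The Zfp genes are mouse zinc finger genes whose symbol is Zfp followed by a number, with or without a final letter. They were taken by symbol from the transcripts listed for oligodendrocyte progenitor cells (OPCs) and for oligodendrocytes (OLs), with one canonical coding transcript per gene. The rule sets aside Zfp36, an RNA-binding protein with another kind of finger, and Zfp488, a known oligodendrocyte regulator, and of these Zfp488 was the 1 listed. The rule gave 281 members among 10104 listed transcripts. Of these, 150 were listed for both cell types, 130 for OLs alone and 1, Zfp53, for OPCs alone.

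The study followed the decay of labelled RNA in both cell types. OPCs had been derived from epiblast stem cells of male 129S/SvEv mouse embryos and were kept in basic FGF and PDGFA, and OLs were differentiated from such OPCs with noggin, IGF-1, cAMP, NT3 and the thyroid hormone T3. RNA was labelled for 24 h with 5-ethynyluridine (5-EU), to which biotin can later be attached, which in OLs began after 40 h of differentiation, and the label was then chased with uridine. Labelled RNA was pulled down and sequenced at 0, 1, 2, 4 and 6 h, in 3 replicates of OPCs and 2 of OLs, or 25 libraries, while 1 control library made without biotin was not analysed here. Level means FPKM, a fragment count divided by transcript length and by the size of the library, which the authors then scaled to labelled spike-in RNA. Half-life means the time in hours for the labelled transcript to fall to 50% of its 0 h level, as fitted by the authors in each replicate with a ceiling of 6 h. Every OPC value thus comes from one stem-cell system, the OL cultures can still hold OPCs, and fewer expressing cells cannot be told apart from less RNA per cell.

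Most Zfp genes code for DNA-binding proteins built from C2H2 fingers, loops of protein that fold around a zinc ion and read a few bases each. The largest class also carries a KRAB domain, which recruits the corepressor TRIM28 and, through it, histone methyltransferases and heterochromatin proteins, and many of its members bind transposable elements. These genes multiplied by tandem duplication and lie in clusters. Smaller groups are single genes with other tasks, among them RNA-binding proteins, ubiquitin ligases and ribosome assembly factors.

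The coding sequences showed these traits. At least 1 finger pattern (paired cysteines and histidines at the usual spacing) was found in 274 of the 281 members, with a median of 11 and a maximum of 36 fingers, the latter in Zfp142. Among the other listed transcripts, 2.39% held such a pattern. A pattern from the KRAB domain was found in 126 members and in 24 other transcripts. The search used a short stretch of the domain and misses diverged copies, such as that of Zfp57.

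Fingers of one protein are joined by a short linker whose usual residues are threonine, glycine, glutamate, lysine and proline. The lysine can be written AAA or AAG, and the 1189 such linkers of 204 members repeat that choice many times over. It was AAA in 723 linkers (60.8%), which is close to the 60.5% of the 281 linkers in other transcripts. The next lines give the 21 coding bases around the first linker of members that the results name, read from GENCODE transcripts on GRCm38 with the lysine codon in capitals. They are shown since they are the repeated element that members share, and since they differ between members only at synonymous positions.
Zfp970: catacaggagagAAAccctat
Zfp113: cacactggagaaAAAccctat
Zfp40: catactggagagAAAccttac
Zfp943: catacaggagagAAAccttac
Zfp60: cacactggagagAAGccctat
Zfp553: cacacaggggagAAGccctac
Zfp664: cacactggggagAAGccgtac

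The stretch of Zfp970 is at chr2:177475007-177475027 on the plus strand, that of Zfp113 at chr5:138145300-138145320 on the minus strand and that of Zfp40 at chr17:23176271-23176291 on the minus strand. Those of Zfp943 (chr17:21992538-21992558), Zfp60 (chr7:27748491-27748511), Zfp553 (chr7:127235587-127235607) and Zfp664 (chr5:124885868-124885888) lie on the plus strand. All are coding bases. Of the 183 members with at least 2 linkers, 40 used AAA in all of them, 34 used AAG in all and 109 used both. Zfp970 had AAA in 13 of 13 linkers, Zfp40 in 11 of 11 and Zfp943 in 7 of 7, while Zfp664 had AAG in all 5 and Zfp60 in both. Zfp113, with AAA in 2 of 7, and Zfp553, with AAA in 1 of 5, were mixed.

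Members used more AAA and fewer codons that end in G or C than other transcripts. The median share of codons with G or C at the third position (GC3) was 48.9% in members and 60.8% in the 9809 others, and the median share of AAA among lysine codons was 48.5% against 36.8%. Members with the KRAB pattern had a median GC3 of 41.4% and the 155 without it one of 57.6%.

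Far more Zfp genes were listed for OLs than for OPCs. The OPC list held 151 members among 8530 transcripts (1.77%) and the OL list 280 among 9751 (2.87%). Of the 1574 transcripts listed for OLs alone, 130 (8.26%) were members, against 1 of 353 (0.283%) listed for OPCs alone. A KRAB pattern was found in 84 of the 130 members listed for OLs alone (64.6%) and in 41 of the 150 listed for both (27.3%). AAA made up 66.9% of 719 linkers in members listed for OLs alone and 51.3% of 462 in those listed for both. Every listed transcript had at least 1 FPKM at 0 h and a value above 0 at 1 h and 2 h in each replicate of its cell type, so a member missing from the OPC list is not shown to be silent there.

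One OPC library stood low for AT-rich genes. Among the 67 members listed for both with a GC3 under 50%, OPC replicate 1 held the lowest of the 3 OPC levels in 57, and the median log2 difference between replicates 1 and 2 was -0.96. Among the 83 members with a GC3 of 50% or more it was -0.15. Over all shared transcripts with a GC3 under 50% it was -0.57. In OPC replicate 1, 12 of the 150 shared members were under 2 FPKM, against 2 and 4 in replicates 2 and 3 and 0 and 1 in the OLs. The part of that library in the number of members absent from the OPC list was not tested.

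The members with the highest levels among those listed for OLs alone were Zfp60, Zfp622 and Zfp383. Zfp60, a KRAB gene, was at 23.7 FPKM in OL replicate 1 and 23.6 in replicate 2, and Zfp383, another KRAB gene, at 14.8 and 17.3. Zfp622, an assembly factor of the large ribosomal subunit, was at 13.5 and 19.8. Zfp53, the member listed for OPCs alone, was low in all 3 replicates, at 1.46, 3.66 and 3.20 FPKM. Other members of known role were listed for OLs alone: Zfp536, a repressor of neuronal differentiation, was at 14.0 and 6.56, Zfp451, a SUMO ligase, at 6.10 and 13.1, Zfp57, which guards imprinted DNA methylation, at 3.03 and 1.48, and Zfp217, a partner of the CoREST corepressor, at 1.46 and 2.29. Zfp60 and Zfp383 were about level between the OL replicates, while Zfp536 and Zfp57 were higher in replicate 1 and Zfp451 and Zfp217 in replicate 2.

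Before the chase, members were expressed at modest levels. Their median at 0 h was 8.59, 11.3 and 10.3 FPKM in OPC replicates 1, 2 and 3, where all listed transcripts had medians of 17.4, 19.1 and 18.5. In OL replicates 1 and 2 it was 6.70 and 8.68, against 15.6 and 17.0. The same 4 members led both cell types. Zfp207, a spindle protein that binds Bub3, was at 94.5, 96.4 and 106 FPKM in OPCs and 102 and 83.5 in OLs, and Zfp740 at 71.1, 68.9 and 85.1 against 92.4 and 95.4. Zfp664 was at 50.6, 71.7 and 52.1 against 69.2 and 58.6, and Zfp266, a KRAB gene, at 40.2, 74.4 and 53.4 against 69.6 and 73.9. Of these 4, only Zfp740 had OL levels that lay wholly above those of OPCs, and none passed the test of level.

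The 150 members listed for both were compared between OLs and OPCs on log2(FPKM + 1), in a limma fit over all 8177 shared transcripts. At an adjusted p under 0.05, 15 members were higher in OLs (10.0%, where 13.8% of all tested transcripts were) and 3 were lower (2.00%, where 15.8% were). The median log2 change of the members was 0.26, against -0.01 over all tested transcripts, and 97 of the 150 lay above 0. The 2 OL levels lay above all 3 OPC levels in 44 members, a pattern that 28.0% of all transcripts had, and below them in 24, where 31.4% of all did. The members' median change fell to 0.13 without OPC replicate 1 (all transcripts -0.03) and to 0.15 without OL replicate 2 (-0.07). It was 0.26 to 0.35 without any other single replicate.

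Zfp365, which lacks C2H2 finger matches here and codes for a centrosomal protein that binds DISC1, was at 18.9, 25.7 and 20.2 FPKM in OPCs and at 64.0 and 58.6 in OLs. The groups did not overlap, and the level rose by 1.47 ± 0.23 on the log2 scale (SE, adjusted p of 0.00282 by limma). Zfp276 was at 9.61, 9.16 and 11.1 FPKM in OPCs and 29.4 and 25.9 in OLs (log2 change 1.39 ± 0.21, limma adjusted p = 0.00281). Zfp326, a subunit of a complex that couples splicing to transcript elongation, was at 9.69, 22.0 and 16.6 in OPCs and 44.2 and 47.0 in OLs (1.51 ± 0.33, limma adjusted p = 0.0117). Zfp365 and Zfp276 had tight OPC replicates, whereas Zfp326 spread widely among them.

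The next 5 members also rose. Zfp386, a KRAB gene, was at 3.63, 18.4 and 13.2 FPKM in OPCs and 32.9 and 36.5 in OLs (log2 change 1.72, limma adjusted p = 0.0444). Zfp943 was at 1.56, 4.35 and 2.60 against 9.07 and 11.1 (1.59, limma adjusted p = 0.0091), and Zfp654 at 2.06, 8.44 and 6.14 against 13.9 and 16.6 (1.46, limma adjusted p = 0.0396). Zfp40 was at 1.14, 3.33 and 2.50 against 7.38 and 6.90 (1.35, limma adjusted p = 0.0153), and Zfp955b at 4.06, 6.30 and 4.69 against 10.7 and 15.7 (1.23, limma adjusted p = 0.0114). In each of these 5, OPC replicate 1 was the lowest of all samples. Without it the change of Zfp386 was 1.10, and its call was lost without OPC replicate 3 (limma adjusted p = 0.0651), OL replicate 1 (0.178) or OL replicate 2 (0.195). Of Zfp326 and the other 4 of these members, all lost the call without OL replicate 2 and all but Zfp955b without OL replicate 1, and Zfp654 also lost it without OPC replicate 3. OPC replicate 1 was the lowest OPC sample in 12 of the 15 members called higher, and without it 15 members were called higher (10.0%, where 14.2% of all transcripts were). Without OPC replicate 2, the library highest for AT-rich members, the count rose to 33, and the members' share of 22.0% then lay above the 16.0% of all transcripts. It fell to 7 (4.67%, all 7.61%) without OPC replicate 3, 5 (3.33%, all 5.12%) without OL replicate 1 and 2 (1.33%, all 5.94%) without OL replicate 2. Zfp365 and Zfp276 were called in each of these fits.

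The 3 members that fell had OPC levels well apart from OL levels. Zfp710 was at 12, 11.6 and 14.8 FPKM in OPCs and 4.79 and 4.07 in OLs (log2 change -1.34 ± 0.22, limma adjusted p = 0.00373). Zfp41 was at 58.8, 48.8 and 58.7 against 26.2 and 27.7 (-1.01 ± 0.21, limma adjusted p = 0.0108), and Zfp687, a zinc finger partner of the chromatin reader ZMYND8, at 29.6, 22.7 and 32.2 against 11.7 and 15.8 (-0.99 ± 0.25, limma adjusted p = 0.0218). Zfp710 stayed below the threshold in every fit that left out a replicate, and Zfp41 and Zfp687 did not. Members called lower numbered 5, 3 and 1 without OPC replicates 1, 2 and 3, where 16.2%, 15.9% and 7.84% of all transcripts were, and 1 and 4 without OL replicates 1 and 2, where 5.83% and 8.50% were.

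**Figure D1:**
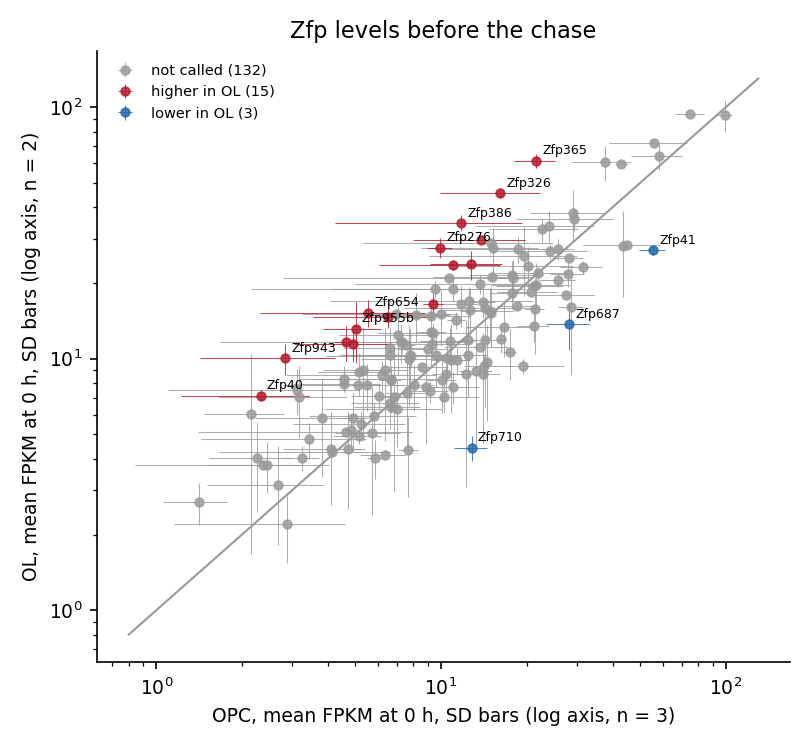
Mean FPKM at 0 h of the 150 Zfp members listed for both cell types, OPC (3 replicates) on the x axis and OL (2 replicates) on the y axis, both log axes, with SD bars and the line of equal level. The 15 members called higher in OLs (red) lie above the line, with Zfp365 and Zfp326 at the top, and the 3 called lower (blue: Zfp41, Zfp687, Zfp710) lie below it.

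Nearly every Zfp transcript decayed measurably during the chase. In OPCs, 150 of 151 members fell with time (limma on log2(FPKM + 1) with the replicate as a block, adjusted p under 0.05), where 81.7% of all 8530 transcripts did. In OLs, 268 of 280 members fell, where 68.4% of all 9751 transcripts did. By the same fits, 0 members rose in OPCs, where 4.31% of all transcripts did, and 0 in OLs, where 1.50% did. At an unadjusted p under 0.05, 150 and 271 members changed, all of them downward. When each library was centred on its median, 11 of 151 members still fell in OPCs (7.28%, where 13.9% of all transcripts did) and 61 of 280 in OLs (21.8%, where 13.8% did). Rising were then 32 in OPCs (21.2%, all 39.8%) and 10 in OLs (3.57%, all 31.2%).

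The fall was early. After 2 h the median member was at 25.8%, 34.5% and 47.2% of its 0 h level in OPC replicates 1, 2 and 3, where all listed transcripts had medians of 54.7%, 83.3% and 72.0%. In OL replicates 1 and 2 it was at 29.7% and 40.4%, against 72.8% and 62.8%. Members lay below the median of all transcripts in each of the 5 replicates at 2 h, 4 h and 6 h, but not at 1 h in OPC replicate 3, where they kept 77.1% against 75.4%. At 6 h the member medians were 12%, 7.94% and 13.6% in OPCs and 14.8% and 14.9% in OLs, close to one another, while those of all transcripts were 14.4%, 11.0% and 17.7% in OPCs and 31.5% and 36.6% in OLs. The gap between members and other transcripts at the end of the chase was thus small in OPCs and wide in OLs. At 6 h, 15.7%, 21.6% and 16.4% of all listed transcripts stood at 0 FPKM in OPCs, and 4.08% and 0.790% in OLs. Of the members, 20.5%, 26.5% and 15.2% stood at 0 in OPCs and 8.93% and 1.79% in OLs. The part of these zeros in the small OPC gap was not tested. The OL medians are taken over 280 members, and over the 150 shared ones they were 17.5% and 15.8%.

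**Figure D2:**
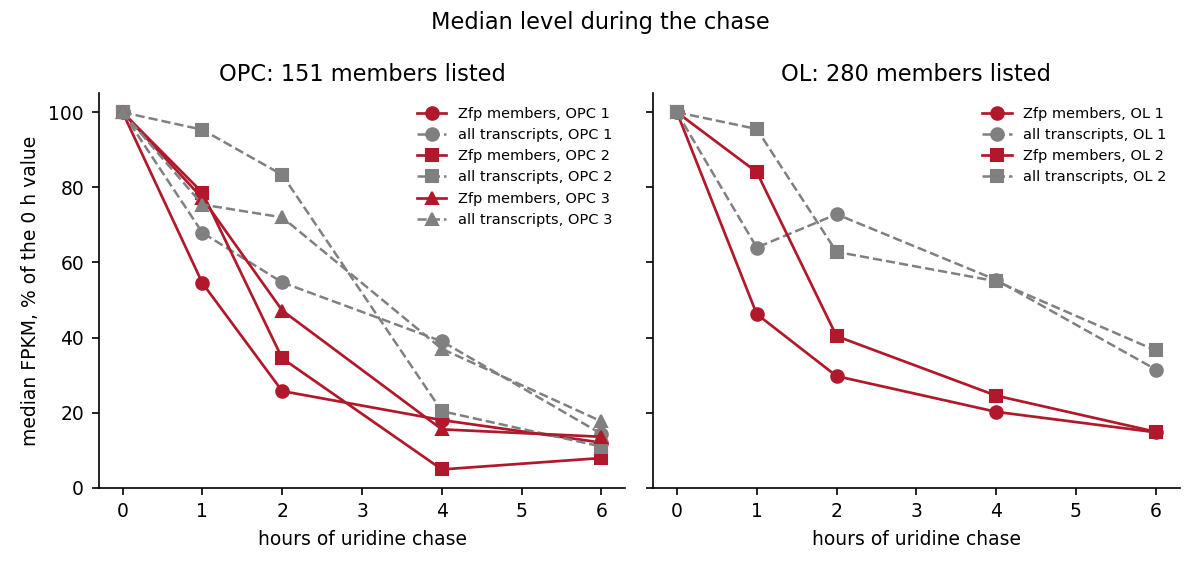
Median FPKM of Zfp members (red, solid) and of all listed transcripts (grey, dashed) as a percentage of the 0 h value, against hours of chase, in each OPC replicate (left, 151 members) and OL replicate (right, 280 members). The red lines fall to between 25.8% and 47.2% by 2 h, and the gap to the grey lines is still wide at 6 h in OLs but not in OPCs.

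The single member without a significant fall in OPCs was Zfp644, named after its values were seen. It went from 11.2, 28.9 and 20.4 FPKM at 0 h to 8.24, 16.3 and 13.4 at 6 h (slope -0.12 log2 units per h, limma adjusted p = 0.0613). In OLs the 12 without a significant fall included Zfp423, a 27-finger partner of the factors EBF and SMAD, Zfp335, a subunit of a histone methyltransferase complex, and Zfp57, Zfp692 and Zfp706. Zfp423 was at 3.17 and 6.93 FPKM at 0 h and at 3.41 and 3.42 at 6 h, and Zfp706, coding for a small protein with 1 finger, at 60.1 and 59.1 and then 41.0 and 41.1. The former is a low transcript with values that went up and down, and the latter is a well-expressed one that ended at 41.0 or more in both OL replicates.

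Half-lives put Zfp transcripts near the bottom of the range. All 150 shared members had a half-life in all 5 replicates, as did 8112 transcripts in all. OPC replicates 1, 2 and 3 had median member half-lives of 1.39, 1.29 and 1.96 h, and OL replicates 1 and 2 had 1.50 and 2.02 h, where the medians over every transcript were 2.35, 2.08, 2.83, 4.54 and 4.44 h. Members lay below the median of all transcripts in 121, 132 and 124 cases in the OPC replicates and in 131 and 137 in the OL replicates. The median of all transcripts was longer in both OL replicates than in any OPC replicate, and that of the members was not. Gene by gene, the median log2 change was 0.34 in members and 0.37 over all transcripts, and 109 of the 150 members were longer in OLs (72.7%, where 69.8% of all were and 16.1% stood at the ceiling in all 5 replicates). These medians rested on the OL replicates, at 0.59 and 0.46 without OL replicate 1 and 0.09 and 0.27 without OL replicate 2.

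Ranks remove the scale that a library shares, but half-lives below the ceiling that matched to 6 decimals could still get separate ranks. The median member stood at the 23.2nd, 10.8th and 26.6th percentile of half-life in OPC replicates 1, 2 and 3 and at the 11.6th and 12.4th in OL replicates 1 and 2. The lowest 10% of the ranks held 50, 68 and 31 members in OPCs and 70 and 62 in OLs. At the ceiling of 6 h were 2.67%, 1.33% and 5.33% of members in OPCs and 8.0% and 4.67% in OLs, against 24.5%, 25.3% and 31.6% and then 42.3% and 38.8% of all transcripts. OPC replicate 2 sits among the OL replicates here, so the lower ranks in OLs do not separate the cell types.

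**Figure D3:**
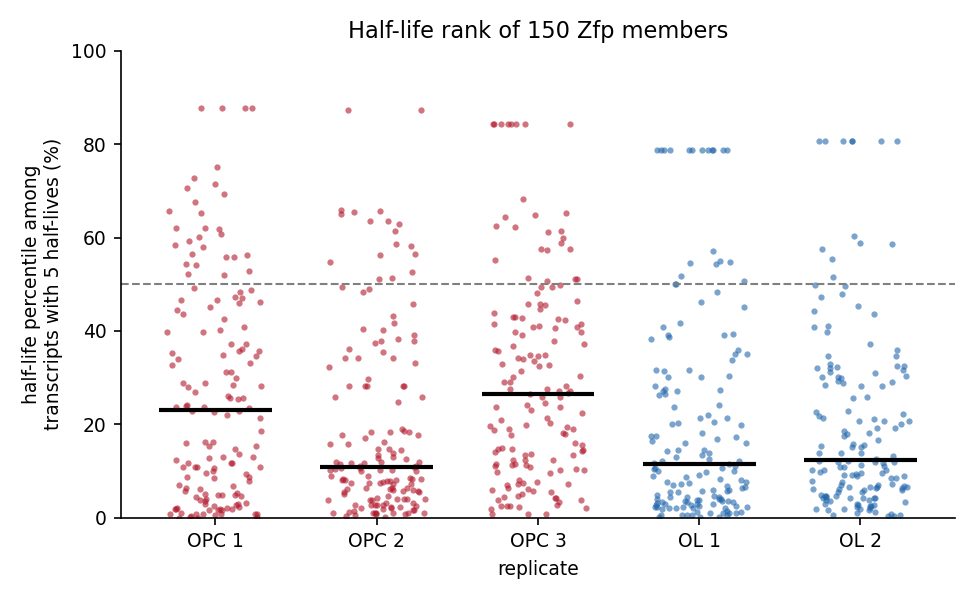
Half-life percentile of the 150 shared Zfp members among the 8112 transcripts with 5 half-lives, one column per replicate (OPC red, OL blue); bars are medians, the dashed line is the 50th percentile, and points are spread sideways for visibility. The medians of 10.8 to 26.6 all lie far under the dashed line, and the points in a row at the top are members at the 6 h ceiling.

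The shortest-lived of the 150 shared members in OPCs were Zfp553, Zfp113, Zfp574 and Zfp319. Zfp553, a 12-finger gene, had half-lives of 0.27, 0.83 and 0.61 h in OPCs and 1.57 and 2.18 h in OLs, and Zfp574 ones of 0.43, 0.76 and 0.91 h against 3.04 and 2.89 h. Zfp319 had 0.45, 0.89 and 0.80 h against 0.90 and 1.96 h. Zfp113, a KRAB gene, was short in both, with 0.55, 0.76 and 0.76 h against 0.46 and 1.02 h. Only for Zfp574 and Zfp553 did the OL half-lives lie wholly above the OPC ones by more than the range within either cell type.

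Of the 150 shared members, Zfp280b, Zfp113, Zfp970 and Zfp322a were the shortest in OLs. Zfp280b had 0.47 and 0.96 h there and 0.46, 0.76 and 1.04 h in OPCs. Zfp322a had 0.56 and 1.28 h in OLs and 2.12, 1.24 and 2.38 h in OPCs. Zfp970 had 0.57 and 1.16 h in OLs and 5.18, 1.78 and 3.35 h in OPCs, but its OPC levels at 0 h were only 1.06, 1.78 and 1.39 FPKM, and 78.0% of the 30-base words of its transcript also occur in a transcript of another gene. Reads of such copies may have been divided between genes.

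None of the longest-lived shared members carries the KRAB pattern. In OPCs they were Zfp423 (6.00, 6.00 and 4.90 h), Zfp106, an RNA-binding protein needed by motor neurons (6.00, 3.55 and 6.00 h), Zfp704 (6.00, 3.47 and 6.00 h) and Zfp706 (3.74, 6.00 and 4.79 h). In OLs Zfp706, Zfp692, Zfp664 and Zfp598 stood at the 6 h ceiling in both replicates, where values can no longer be ordered. Zfp423 remained long in OLs, at 6.00 and 5.87 h, and Zfp704 was at 5.86 and 4.60 h.

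Members listed for OLs alone had shorter half-lives than shared members in both OL replicates. Their median half-life was 0.978 h in OL replicate 1 and 1.79 h in replicate 2 (129 members with a half-life), the 5.47th and 9.83rd percentile of each replicate's own table. The 150 shared members had 1.50 and 2.02 h there, the 15.5th and 16.2nd percentile, at higher median levels of 10.8 and 12.7 FPKM. Median levels were 3.97 and 4.98 FPKM in the members listed for OLs alone. The 1427 other transcripts listed for OLs alone, with median levels of 4.97 and 5.79 FPKM, had 2.68 and 2.70 h. In replicate 1 the KRAB members listed for OLs alone had a median of 0.897 h (n = 84) and those without the pattern one of 1.10 h (n = 45), while in replicate 2 both had 1.79 h.

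Among shared members, those with a KRAB pattern had shorter half-lives than the rest in both OL replicates, at 1.18 h (n = 41) against 1.76 h (n = 109) in replicate 1 and 1.87 against 2.18 h in replicate 2. In OPCs the medians were 1.41 against 1.39 h, 1.16 against 1.37 h and 1.92 against 1.96 h. Zfp60, the highest KRAB gene among those listed for OLs alone, fell from 23.7 and 23.6 FPKM at 0 h to 2.99 and 4.24 at 2 h, with half-lives of 0.98 and 1.86 h.

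Zfp598 was the 1 member called by half-life, of 150 tested, and was longer in OLs, in a limma fit on log2 hours over 8112 transcripts in which 3.39% were called longer. It codes for the ubiquitin ligase that marks collided ribosomes. By the same fit 0 members were called shorter, where 0.148% of all transcripts were, and 25 members had an unadjusted p under 0.05. Zfp598 had half-lives of 1.92, 1.96 and 1.96 h in OPCs and 6.00 h, the ceiling, in the OLs. On the log2 scale the difference was 1.63 ± 0.02 (SE), with an adjusted p of 0.00126 by limma.

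The time course of Zfp598 shows what lies under that call. In OPCs it went from 16.6, 18.4 and 17.2 FPKM at 0 h through 8.04, 12.2 and 12.9 at 2 h to 3.18, 1.23 and 3.28 at 4 h and 0.36, 0.00 and 0.52 at 6 h. In OLs it started lower, at 8.94 and 12.4, held 7.83 and 12 at 2 h, and ended at 4.53 and 3.70 at 6 h. The level was higher in OPCs at the start and higher in OLs at the end in every replicate. The slope of log2(FPKM + 1), which has no ceiling but is flattened at low levels by the added 1, was -0.68 per h in OPCs and -0.21 in OLs.

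Several values behind the Zfp598 call are ones that the fit repeats. Both OL values stood at the ceiling, and 2 OPC values were 1.957 h, a number the fitting method gives to any transcript whose 1 h and 2 h points lie above the curve and whose 4 h and 6 h points lie below it. In OPC replicate 2, 25.3% of all 8112 transcripts had this half-life to 6 decimals, and 38 of the 150 members had a value that 20 or more transcripts shared. The call held in 8 of 12 other settings, among them the rescaling to the mean decay curve (log2 change 1.14, limma adjusted p = 0.0135) and each fit without 1 replicate. It was lost when half-lives were centred on each replicate's median (log2 change 0.72, limma adjusted p = 0.0983), when they were turned into ranks (limma adjusted p = 0.0606) and when they were refitted without the 6 h libraries (0.57, limma adjusted p = 0.795). With a replicate block the change was 1.63 ± 0.03 (limma adjusted p = 0.155), in a fit where 0 of all 8112 transcripts passed and 37 members had an unadjusted p under 0.05.

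**Figure D4:**
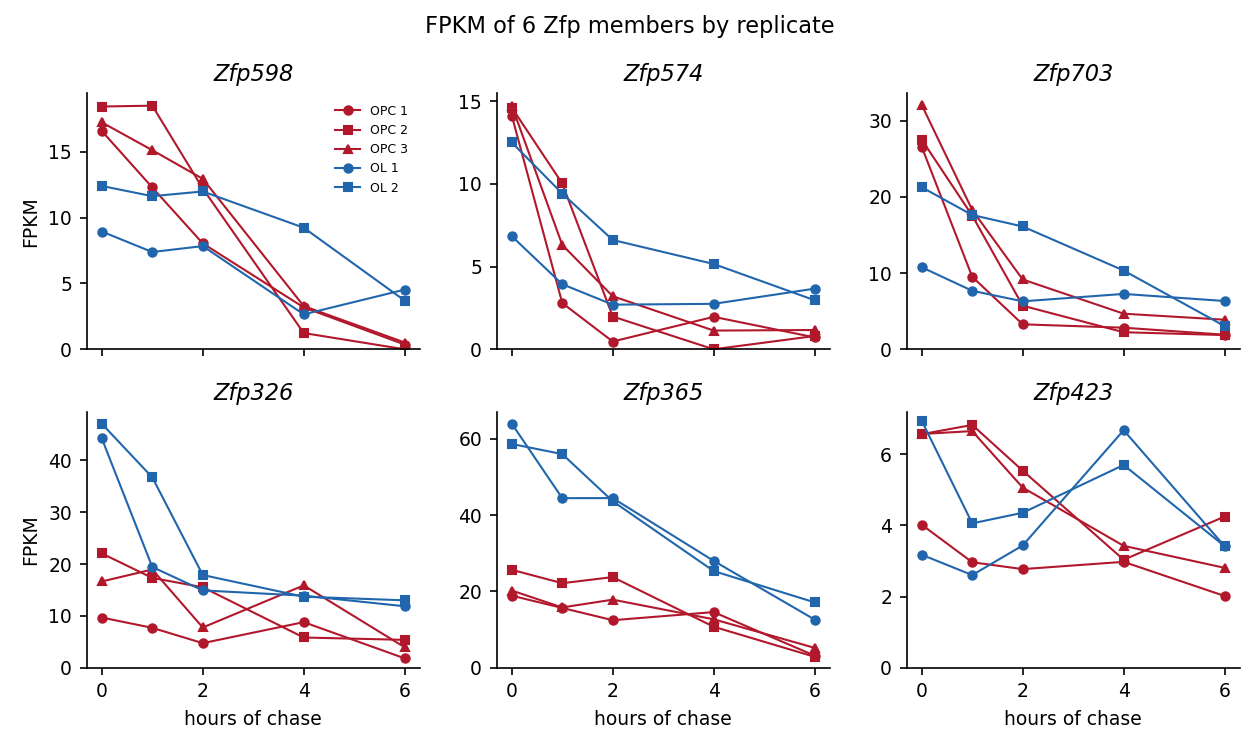
FPKM against hours of chase in each replicate (OPC red, OL blue) for Zfp598, Zfp574, Zfp703, Zfp326, Zfp365 and Zfp423. Zfp598 and Zfp574 start higher in OPCs and end higher in OLs, from 16.6 to 18.4 FPKM in OPCs and 8.94 and 12.4 in OLs for Zfp598, whereas Zfp365 and Zfp326 start and end higher in OLs.

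Other members had large differences that did not pass the test. Zfp703, a transcriptional corepressor, had half-lives of 0.67, 1.11 and 1.23 h in OPCs and 6.00 and 3.84 h in OLs (log2 change 2.30 ± 0.39, limma adjusted p = 0.0826). Zfp574 had a log2 change of 2.15 ± 0.39 (limma adjusted p = 0.0918). Zfp384, a factor that binds runs of A and T, had 0.76, 1.18 and 0.91 h against 2.85 and 2.88 h (1.62 ± 0.22, limma adjusted p = 0.0618), and Zfp593, a ribosome assembly factor, had 1.06, 1.25 and 1.60 h against 3.29 and 2.97 h (1.29 ± 0.22, limma adjusted p = 0.0819). Without overlap between the groups, 47 members were longer in OLs, where 35.9% of all transcripts were, and 5 were shorter, where 2.01% were.

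By rank, more members sank than rose, as was so for all transcripts. Ranked within each replicate, 42 members had both OL percentiles below all 3 OPC percentiles, a pattern 30.6% of all transcripts had, and 15 had both above, where 15.3% had. The members' shares were 28.0% and 10.0%. Exactly tied values share the mean rank, and more transcripts stood at the 6 h ceiling in OLs. A transcript at the ceiling in all 5 replicates therefore counts as lower in OLs. This held for 16.1% of all transcripts and 0 members, so the 30.6% is not a like background for the members. Half-lives of 1.957 h in OPC replicate 2 got percentiles as far apart as 25.9 for Zfp24 and 37.8 for Zfp148. The order within that repeated value carries no meaning, and the ranks of Zfp598 in OPC replicates 2 and 3 rest on it. Zfp326 was at the 52.2nd, 61.5th and 50.7th percentile in OPCs and the 7.6th and 16.8th in OLs. Zfp598 went the other way (40.3rd, 39.2nd and 28.3rd against 78.8th and 80.6th). Zfp326 thus rose in level at 0 h while its half-lives of 2.49, 2.95 and 2.90 h in OPCs were followed by 1.28 and 2.25 h in OLs, and Zfp365 rose in level with half-lives of 3.34, 3.19 and 5.96 h against 3.36 and 3.38 h.

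When the slope of log2(FPKM + 1) over the chase was compared in place of the half-life, 15 of 150 members fell more slowly in OLs (limma adjusted p under 0.05), or 10.0%, where 24.1% of all 8112 transcripts did. By that fit 0 members fell faster in OLs, where 0.0863% of all transcripts did, and 36 had an unadjusted p under 0.05. The 15 were Zfp598, Zfp335, Zfp692, Zfp771, Zfp362, Zfp367, Zfp513, Zfp207, Zfp277, Zfp646, Zfp574, Zfp628, Zfp637, Zfp787 and Zfp512b. None of them carries the KRAB pattern, and their median GC3 was 63.5%, against 53.2% over the 150 members. All tested transcripts leaned the same way, with a median slope difference of 0.14 per h against 0.08 in the members. The added 1 flattens the slopes of low transcripts, and members started lower than transcripts at large. With 0.1 in its place the median OPC slope moved from -0.40 to -0.58 in listed members and from -0.38 to -0.52 over all listed transcripts. The comparison of slopes between cell types was not repeated with 0.1.

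Codon content went with half-life in both OL replicates, while the OPC replicates differed in sign. Across the 150 shared members, Spearman's correlation between GC3 and half-life was 0.46 and 0.33 in the OL replicates and -0.26, 0.09 and -0.11 in the OPC replicates. For the share of AAA among lysine codons it was -0.44 and -0.27 in OLs and 0.28, -0.08 and 0.23 in OPCs. Over all transcripts the values for GC3 were 0.29 and 0.11 in OLs and -0.06, 0.07 and -0.06 in OPCs, so the members showed the same direction in OLs at a larger size. Members are related sequences and GC3 and AAA share move together, so these are descriptions across genes and not tests. Half-lives are fitted relative to the 0 h level. OPC replicate 1, which was low for AT-rich genes at 0 h, had the most negative GC3 correlation. The part of that library in the contrast between cell types was not tested.

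Members ranked low at every codon content. When transcripts were divided in 3 equal groups by GC3, the members ranked below the other transcripts of their group in every replicate. In the group with the lowest GC3 (up to 54.4%), the 79 members had median percentiles of 29.9, 9.99 and 26.5 in OPCs and 5.61 and 9.23 in OLs, and the 2622 others had 51.5, 47.3, 51.8, 34.9 and 43.4. In the group with the highest GC3 (above 65.8%), the 36 members had 11.7, 12.2 and 18.9 in OPCs and 30.6 and 25.5 in OLs, and the 2664 others had 48.7, 53.6, 49.1, 78.8 and 55.4.

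**Figure D5:**
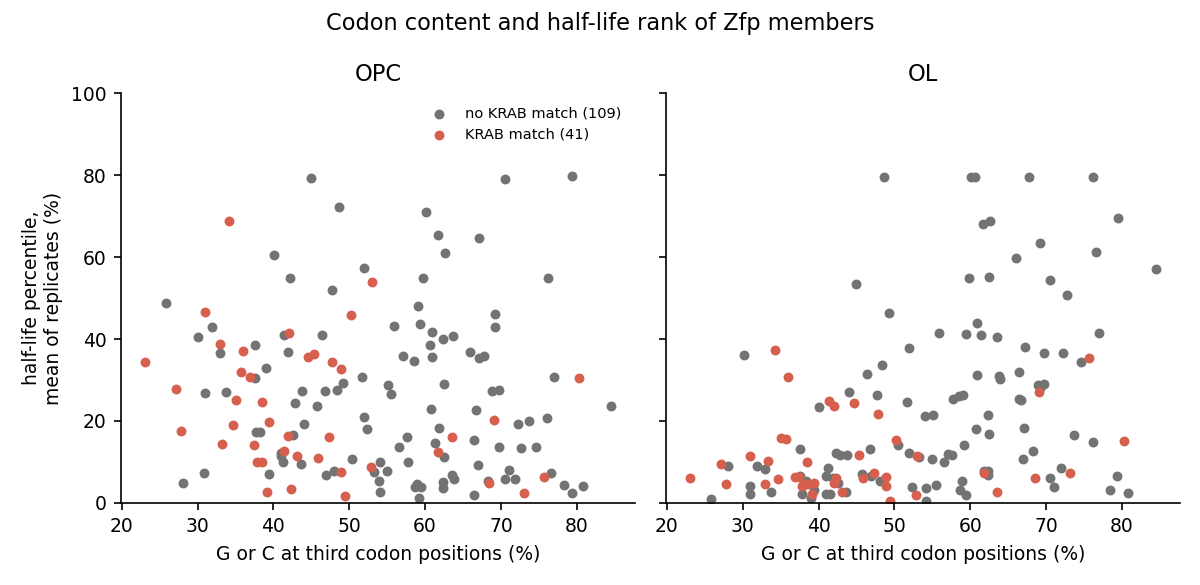
Half-life percentile (mean of the replicates) of the 150 shared Zfp members against GC3, in OPCs (left) and OLs (right), with the 41 members that match the KRAB pattern in red and the other 109 in grey. In OLs the AT-rich members crowd at the bottom and the percentile rises with GC3, which the OPC panel does not show.

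The number of fingers went with shorter half-lives in all 5 replicates, with Spearman correlations of -0.19, -0.40 and -0.16 in OPCs and -0.30 and -0.35 in OLs. The density of ATTTA in the 3′ UTR, the core of a known destabilising element, was searched on the transcript strand in 137 shared members and gave 0.09, -0.19 and 0.04 in OPCs and -0.41 and -0.33 in OLs. Its median density was 1.58 per kb in the shared members, 2.01 in members listed for OLs alone and 1.40 in other transcripts.

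Members with known roles in the lineage or in RNA biology were followed as a fixed list of 28 genes, of which 26 were listed and Zfp42 and Zfp143 were not analysed here. Zfp24, a factor that myelination requires, was at 28.4, 45.9 and 38.2 FPKM in OPCs and 53.7 and 67.2 in OLs. The groups did not overlap, and the log2 change of 0.69 ± 0.26 did not pass (limma adjusted p = 0.0823). Its half-lives were 1.47, 1.96 and 1.96 h in OPCs and 1.44 and 2.20 h in OLs, so neither cell type kept it longer. Zfp281, a regulator of pluripotent cells, passed the test of level, at 6.08, 16.1 and 11.0 FPKM against 22.9 and 24.4 (log2 change 1.12, limma adjusted p = 0.0465), and had half-lives of 1.08, 0.96 and 2.08 h against 0.88 and 1.73 h. Its call by level was lost without OPC replicate 3 and with 0.1 added in place of 1.

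Of the other factors on that list, Zfp521, a paralogue of Zfp423, was at 11.3, 14.5 and 14.1 FPKM in OPCs and 5.82 and 12.1 in OLs, and Zfp462, which works with H3K9 methyltransferases, at 14.3, 27.2 and 23.4 against 16.6 and 22.7. Zfp148, which binds GC-rich promoters, was at 14.5, 23.7 and 14.9 against 19.4 and 23.6, Zfp292 at 4.45, 21.6 and 14.9 against 18.6 and 21, and Zfp407 at 4.76, 11.3 and 7.33 against 8.31 and 12.3. In these 5 the ranges of the cell types overlapped. Zfp91, a ubiquitin ligase, had half-lives of 3.36, 2.12 and 3.81 h in OPCs and 2.53 and 4.38 h in OLs. Zfp346, which binds double-stranded RNA, had 1.16, 1.96 and 1.43 h against 2.60 and 2.56 h, and Zfp385a, an RNA-binding partner of p53, 4.12, 3.52 and 4.45 h against 6.00 and 5.43 h, without overlap in either.

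The corepressor machinery that KRAB members use was examined as a list of 31 genes. Of these, 28 were listed, 3 of them (Cbx1, Chd3 and Mphosph8) for OLs alone and 0 for OPCs alone, and 25 could be tested for level, of which 7 were lower in OLs and 0 higher, with a median log2 change of -0.38 against -0.01 over all transcripts, and 15.8% and 13.8% of all transcripts were called lower and higher. Trim28, the corepressor that KRAB domains bind, was at 268, 220 and 244 FPKM in OPCs and 107 and 106 in OLs (log2 change -1.18, limma adjusted p = 0.00548). Setdb1, the methyltransferase it recruits, was at 28.6, 31.1 and 23.6 against 15.9 and 17.3 (-0.70, limma adjusted p = 0.0465), and Cbx5, a heterochromatin protein, fell by 1.03 on the log2 scale. Uhrf1 (-3.39) and Dnmt1 (-2.06), which maintain DNA methylation in dividing cells, Rbbp7 (-1.34) and Mta2 (-0.86), subunits of deacetylase complexes, made up the rest. By half-life, 1 of 25, the deacetylase Hdac2, was shorter in OLs, with 6.00 h in all OPC replicates and 3.01 and 3.47 h in OLs (limma adjusted p = 0.0315). The list had 0 longer, and 0.148% and 3.39% of all transcripts were called shorter and longer.

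The labelled cell types carried their markers in part. Mbp, a major myelin protein, was at 3.99, 1.19 and 2.28 FPKM in OPCs and 3213 and 1295 in OLs, and Mog, Mag, Mobp, Cldn11 and Myrf were listed for OLs alone. All 8 OPC markers were listed for both cell types, 3 of them higher in OLs (Pdgfra, Gpr17 and Sox10) and 3 lower (Cspg5, Olig1 and Olig2). The 6 astrocyte markers moved apart. S100b, which oligodendrocytes also express, was at 9.07 to 10.5 FPKM in OPCs and 290 and 160 in OLs, Slc1a3 at 179 to 224 against 95.5 and 155, and Gja1 at 35.8 to 42.0 against 40.1 and 188. Gfap (6.86 and 8.12 FPKM) and Aldh1l1 (1.72 and 2.44) were listed for OLs alone and Aqp4 for neither. Summed, the markers stood at 230 to 275 FPKM in OPCs and 434 and 513 in OLs, and without S100b at 220 to 265 in OPCs and 144 and 353 in OLs. None of 4 epiblast stem cell markers was listed, and of 6 neuronal markers 3 were not. The part of other cells in the Zfp levels was not tested.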

How the data were processed

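The members, gene lists and tests were chosen with earlier results of these data known. The authors clipped reads with fastx_clipper, aligned them to GRCm38 with HISAT2 2.1.0 and tabulated FPKM with StringTie 1.3.5 and ballgown over canonical coding transcripts of GENCODE vM9. To make the deposited FPKM comparable over time, the authors scaled them to labelled spike-in RNA, so an error of that scale moves every transcript of a library. They filtered out transcripts by a level under 1 FPKM at 0 h and by levels of 0 at 1 h and 2 h, and no listed transcript was at 0 at 1 h or 2 h. Half-lives in hours, deposited per replicate, were fitted by the authors as a single exponential by least absolute deviations, and values at the ceiling were set here to 6 h. A refit matched to within 0.01 h in 98.5% to 99.9% of transcripts.

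FPKM gives no read counts, and sequencing depth is therefore unknown. Replicates are separate samples in the labels. The OL replicates match 2 of the OPC replicates, per the study, without saying which, and p-values measure the spread between these samples.

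Levels, as log2(FPKM + 1), log2 half-lives and chase slopes were fitted with limma 3.58.1 in R 4.3.3 over all listed transcripts, with Benjamini-Hochberg adjustment, and the fits were tested on simulated data. Named genes were the calls by half-life, the 8 highest and 8 lowest called level changes, the 4 shortest and longest half-lives and 4 highest levels per cell type, the 3 highest listed for 1 cell type alone, and a fixed list of known roles. Coding sequences were read from GENCODE M21, which matched all 281 members; protein features come from their translation. The share of 30-base words also found in another gene's transcript was counted, since near-identical copies can divide reads. It was over 50% in 23 members and over 10% in 76, and their levels are uncertain. Antisense overlap was not examined.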

Additional observations from a re-analysis of the deposited data

Results flagged for a closer look

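The slope of log2(FPKM + 1) over the chase differed between OLs and OPCs in 15 members by a test of the difference itself (limma over 8112 transcripts, adjusted p between 0.00494 and 0.0488). These are 10.0% of the 150 tested members, where 24.1% of all transcripts fell more slowly in OLs. The differences, OL minus OPC in log2 units per h, were 0.47 for Zfp598, 0.43 for Zfp335, 0.39 for Zfp692, 0.36 for Zfp771, 0.35 for Zfp362, 0.35 for Zfp367 and 0.35 for Zfp513. They were 0.33 for Zfp207, 0.32 for Zfp277, 0.29 for Zfp646, 0.29 for Zfp574, 0.27 for Zfp628, 0.26 for Zfp637, 0.25 for Zfp787 and 0.25 for Zfp512b. All 15 fell more slowly in OLs. Zfp598 had slopes of -0.68 per h in OPCs and -0.21 in OLs, Zfp335 -0.50 and -0.07, and Zfp207 -0.65 and -0.32. The transcripts of a library share 1 spike-in scale, and the median slope difference over all tested transcripts was 0.14, against 0.08 over the members. No group had the 4 or more samples that a check for outlying replicates needs.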

How the results depend on the processing

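By level 18 of 150 members were called, and 6 to 36 of 150 when 1 replicate was left out, with 6 without either OL replicate, 8 without OPC replicate 3 and 36 without OPC replicate 2. These are 4.00% to 24.0% of members, and 11.0% to 31.9% of all transcripts were called in either direction in these fits (29.6% with every replicate). Members lay below that share in each. The lone OL sample is then assumed to vary like the OPCs. Without OL replicate 2, 2 members were higher and 4 lower, against 15 and 3. The other settings (pseudocount of 0.1, at least 5 FPKM, centring, replicate block) gave 14 to 25, or 9.33% to 16.7% of members, against 23.6% to 31.7% of all transcripts.

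The 1 call by half-life became 0 with centring, with ranks, without the 6 h libraries and with a replicate block, 5 after rescaling to the mean decay curve (3.33%, all 3.51%), 15 by slope (10.0%, all 24.1%), and 1 to 3 without 1 replicate (0.667% to 2.00%, all 2.06% to 2.91%). For slopes centred on the library median the members falling were 11 of 151 in OPCs and 61 of 280 in OLs, since that subtracts the fall of the median transcript (13.9% and 13.8% of all transcripts then fell). Leaving out 1 replicate gave 144 to 150 members falling in OPCs (95.4% to 99.3%) and 207 to 249 in OLs (73.9% to 88.9%). In these fits 77.7% to 83.0% of all transcripts were called in either direction in OPCs and 52.0% to 58.1% in OLs.

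The median percentile of the members was 8.19 lower in OLs than in OPCs, and between -12.9 and -4.99 without 1 replicate. The median kept at 6 h was 3.65 percentage points higher in OLs, 2.03 to 4.85 without 1 replicate and 9.56 at 4 h. Divided by the median of all transcripts it reversed to -33.8, from 77.7% of that median in OPCs to 43.8% in OLs. Over shared members, a setting chosen after seeing the data, it was 5.39.

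The OL replicates match 2 of the OPC replicates, but whether by number is not given in the sources used here. Correlations of same-numbered deviations were 0.06 and 0.01 in level and -0.0016 and -0.11 in half-life, too weak to show a pairing by number. With the replicate block 22 members were called by level (14.7%, all transcripts 23.6%) and 0 by half-life, where 0 of all transcripts passed. Without the block 150 members fell in OPCs (99.3%) and 263 in OLs (93.9%), where 85.7% and 65.5% of all transcripts were called in either direction. Of 110 fits of single named genes under other settings, 84 kept the call and 26 lost it, with 0 turning direction.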

Other observations

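Zfp genes listed together often lay together on the chromosome. Neighbours within 500 kb formed 9 groups of 5 or more members, with 91 members in all, and 103 members had no such neighbour. The largest group had 17 members, 15 of them with the KRAB pattern, at chr17:21008941-23564238 on GRCm38. Zfp943 and Zfp40, both higher in OLs, lie in it, as does Zfp53, the member listed for OPCs alone, and 10 of the 17 were listed for OLs alone.

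A group of 15 members at chr13:67128228-67827002 had 14 listed for OLs alone, with a median level of 4.87 FPKM and a median half-life of 1.25 h in OLs. By contrast, the 9 members at chr7:127233255-127885996, which include the short-lived Zfp553, had 3 listed for OLs alone, a median of 7.74 FPKM and 1.88 h. The nearest other member was a median of 32.5 kb away for members listed for OLs alone and 505 kb away for shared ones. Members listed for OLs alone also shared more sequence with other genes, with over 50% of 30-base words shared in 18 of 130 against 5 of 150, and reads may be divided among such copies.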
